A study of Homo sapiens with 6 samples.

Results

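PRSS23 and 8 other genes of serine proteases and their inhibitors were examined in A549 cells, an established line of human lung adenocarcinoma, after knockdown of the centrosomal gene CEP20. The 9 genes are PRSS23, PRSS3, PRSS8, ST14, HTRA1, HTRA2, FURIN, SPINT1 and SPINT2, taken by symbol from the 60624 genes of the deposited expression table. They were chosen by name with the siCEP20 to siCTR differences of TPM in these same libraries known, PRSS23 being the lead gene, so their differences are given as descriptions, without a p-value. Where one of them is said to be called or not called, this only says whether it passed the thresholds applied to all genes, and is no evidence beyond the choice. RNA was sequenced from 3 siCEP20 samples and 3 siCTR samples. The siCEP20 cells received small interfering RNA (siRNA) against CEP20, the siCTR cells received a control siRNA, and the labels give 3 days of transfection for both. All 6 samples share the cell line and carry no other labelled change. The labels do not say which CEP20 siRNA was used or whether the samples came from separate cultures, so p-values measure only the spread between these samples, which may be technical. They name a plasmid transfection in 1 field, and F-12K medium and a column RNA kit where the study's methods name DMEM and TRIzol.

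Serine proteases cut proteins with a serine in the active site, and most are made as inactive precursors that another protease has to cut. At the surface of epithelial cells, matriptase (ST14) and prostasin (PRSS8) activate each other and their substrates, and the Kunitz-type inhibitors HAI-1 (SPINT1) and HAI-2 (SPINT2) hold them in check. PRSS23 is a secreted protease of the trypsin fold, PRSS3 encodes mesotrypsin, HTRA1 is a secreted protease that cuts matrix proteins, HTRA2 acts in mitochondria and binds inhibitors of apoptosis once released, and furin (FURIN) is the proprotein convertase of the secretory route that cuts precursors of growth factors and receptors.

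Expression is given as TPM, a length-corrected transcript measure and the authors' estimate of a gene's share of all transcripts in a library. Each library sums to the same total, so the sequencing depth is unknown, and fewer cells that make a transcript cannot be told apart from less of it per cell. The 14778 genes that averaged 1 TPM or more over the 6 samples were compared on the log2(TPM + 1) scale with limma. This scale understates the change of low genes. A call of higher or lower required a Benjamini-Hochberg adjusted p below 0.05 together with a fold change that exceeded 1.5 or fell short of 0.67. The median log2 fold change (siCEP20 minus siCTR) of all tested genes was 0.13, which median-of-ratios scaling moved to -0.0059. CEP20 itself was 31.6 ± 3.10 TPM (SD, n = 3) in siCTR and 16.2 ± 1.01 TPM in siCEP20, or 51.4% of the control, and was lower in all 3 siCEP20 samples (log2 fold change -0.92, limma adjusted p = 0.000205). An exact two-sided permutation test over the samples gave p = 0.1, the smallest that 3 against 3 allows. Between 14429 and 14600 genes reached 1 TPM in the siCTR libraries and between 14851 and 14987 in the siCEP20 libraries. Of the markers of cell types, all 6 epithelial genes were expressed (summed TPM 7029 to 7333 in siCTR, 8474 to 8709 in siCEP20), but of 5 lung epithelial markers NAPSA alone reached 1 TPM and NKX2-1, SFTPA1, SFTPB and SFTPC were at or near 0. Of the fibroblast markers, 1 of 5 reached 1 TPM, COL1A1, whose rise carried the list's sum from 5.54 to 6.10 TPM in siCTR to 17.8 to 20.0 TPM in siCEP20, with COL1A2 and DCN listed at 0. Of 4 leukocyte markers CD14 and CD68 were expressed, with sums of 23.9 to 33.9 TPM and 34.7 to 54.1 TPM, while PTPRC and CD3E were at or near 0. None of the 4 endothelial markers reached 1 TPM. The part of these marker levels in the differences below was not tested.

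PRSS23 had the largest difference of the 9 genes. Its expression was 179.3, 179.7 and 205.1 TPM in the siCTR samples and 612.6, 638.2 and 569.3 TPM in the siCEP20 samples. The groups lay far apart, with 364.2 TPM between the highest control and the lowest knockdown sample, and the samples within each group stayed close to each other. The group means were 188 ± 14.8 TPM (SD, n = 3) and 607 ± 34.9 TPM, a ratio of 3.23, and the log2 fold change was 1.69 (standard error 0.07). With the median of the tested genes subtracted, it was 1.55. Among all tested genes PRSS23 ranked 322 by mean TPM and 34 by log2 fold change, counted from the highest. It is thus an abundant transcript in these cells, and the position in the second ranking is part of what led to its choice.

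The gene PRSS23 (ENSG00000150687) lies on the plus strand of chromosome 11 of hg38 from 86791059 to 86952910. RefSeq gives it 2 start sites, whose upstream windows differ in base composition. Both are shown because PRSS23 carried the largest difference, and the window of SPINT1, the other gene called higher, is shown beside them for comparison. Each is the 250 bases before a RefSeq start site on the plus strand of GRCh38.p14. The windows are chr11:86790821-86791070 for the upstream start of PRSS23, chr11:86800292-86800541 for its downstream start and chr15:40843798-40844047 for the first start of SPINT1. Capitals mark the GC box, GGGCGG on either strand, and overlapping matches were counted separately.
PRSS23 upstream start: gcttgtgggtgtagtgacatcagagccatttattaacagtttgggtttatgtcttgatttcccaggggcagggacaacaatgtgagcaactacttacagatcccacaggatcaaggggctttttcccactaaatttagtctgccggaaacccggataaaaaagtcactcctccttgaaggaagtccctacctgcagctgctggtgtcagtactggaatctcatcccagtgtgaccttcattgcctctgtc
PRSS23 downstream start: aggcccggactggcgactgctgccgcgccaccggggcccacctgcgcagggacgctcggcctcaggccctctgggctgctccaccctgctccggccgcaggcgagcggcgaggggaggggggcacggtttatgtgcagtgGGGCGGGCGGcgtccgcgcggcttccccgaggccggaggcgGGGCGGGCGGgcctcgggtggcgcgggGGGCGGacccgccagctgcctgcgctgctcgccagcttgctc
SPINT1 first start: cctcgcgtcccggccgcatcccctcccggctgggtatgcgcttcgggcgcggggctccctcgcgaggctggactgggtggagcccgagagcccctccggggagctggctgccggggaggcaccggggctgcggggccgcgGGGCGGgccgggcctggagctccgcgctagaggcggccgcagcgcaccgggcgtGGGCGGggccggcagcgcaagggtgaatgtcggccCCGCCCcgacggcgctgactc

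The upstream window of PRSS23 had a GC content of 47.6% and a ratio of observed to expected CpG of 0.141, and none of the 5 motifs sought was found in it. The downstream window had a GC content of 79.6%, a CpG ratio of 0.815 and 5 GC boxes. The medians of all 35116 RefSeq promoter windows were 58.0% and 0.558, so the PRSS23 windows lie on either side of both. The first window of SPINT1 had a GC content of 80.4%, a CpG ratio of 0.874 and 3 GC boxes, and its second window, at chr15:40844227-40844476, had 70.4%, 0.718 and no GC box. The motifs sought on both strands were the TATA box (TATAAA, in 10.7% of all windows), the GC box (GGGCGG, in 42.6%), the CCAAT box (CCAAT, in 32.0%), the AP-1 motif (TGANTCA, in 6.57%) and the TEAD motif (CATTCC, in 11.9%). RefSeq windows were matched for 6 of the 9 genes: PRSS23, PRSS3, HTRA1, HTRA2, SPINT1 and FURIN. The window of HTRA1 held 5 GC boxes at a GC content of 81.2%, that of PRSS3 held 1 AP-1 motif at 54.0%, and the first of 4 windows of FURIN held 1 TATA box at 51.6%. The TPM of a gene sums its transcripts, so the share of each start site in the PRSS23 level was not measured here. A match of letters is a description and not a binding site.

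Genes beside PRSS23 were compared as well. Within 300000 bases, only ME3 and TMEM135 had a mean of at least 0.5 TPM. ME3, a mitochondrial malic enzyme gene, was 14.7, 16.3 and 15.4 TPM in siCTR and 22.5, 23.7 and 22.7 TPM in siCEP20, a log2 fold change of 0.55 (limma adjusted p = 0.000883) that stayed under the fold change threshold. TMEM135 overlapped between the groups (adjusted p = 0.219).

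**Figure D1:**
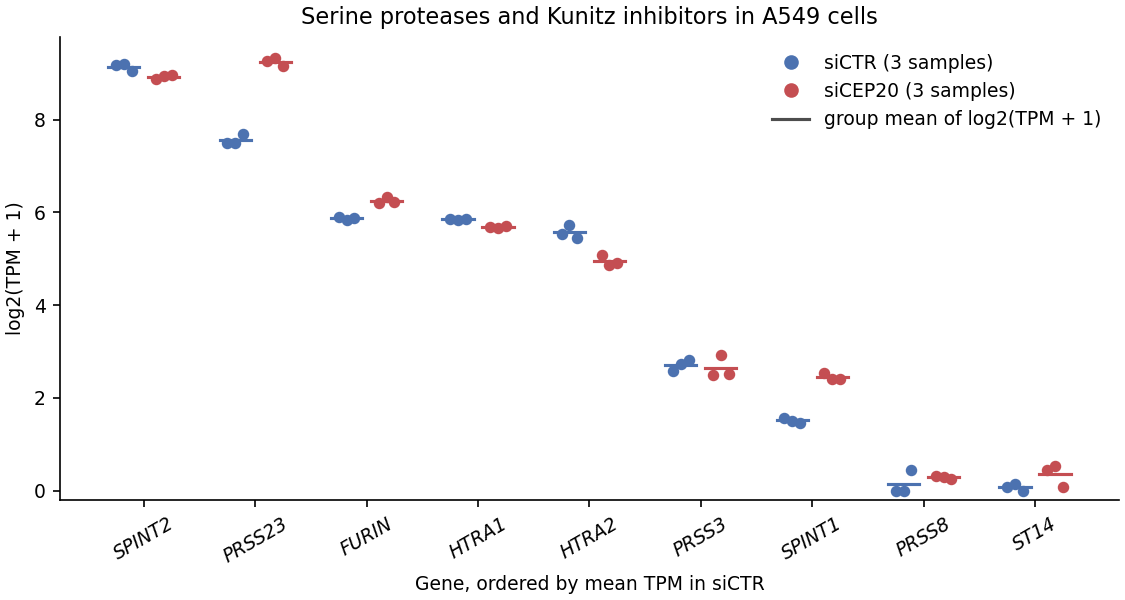
Expression of the 9 genes in each sample, as log2(TPM + 1) on the vertical axis, with genes ordered by their mean TPM in siCTR. Points are samples (blue siCTR, red siCEP20, 3 each) and bars are group means. PRSS23 moved from 188 to 607 TPM and passed SPINT2, while SPINT2, HTRA1 and HTRA2 lay lower in all siCEP20 samples.

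PRSS3, PRSS8 and ST14 were expressed far below PRSS23. PRSS3 (ENSG00000010438, chromosome 9 from 33750679 to 33799231) was 4.96, 5.66 and 6.04 TPM in siCTR and 4.59, 6.53 and 4.69 TPM in siCEP20. The groups overlapped, and the siCEP20 samples spread over a wider range than the controls. Its log2 fold change was -0.07 (standard error 0.15), and it turned to 0.0007 when siCEP20 replicate 1 was left out. Trypsinogen genes are close in sequence, and the other copies PRSS1, PRSS2, PRSS3P1 and PRSS3P3 were listed at 0 in all 6 libraries, so reads that fit several copies could be placed among them in an unknown way.

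The surface pair PRSS8 and ST14 was at the edge of detection, below the filter, and was not tested. PRSS8 (ENSG00000052344, chromosome 16 from 31131433 to 31135727, minus strand) was listed at 0, 0 and 0.358 TPM in siCTR and at 0.248, 0.224 and 0.181 TPM in siCEP20. ST14 (ENSG00000149418, chromosome 11 from 130159782 to 130210362) was listed at 0.0488, 0.103 and 0 TPM in siCTR and at 0.362, 0.435 and 0.0525 TPM in siCEP20. Both overlapped between the groups, with no sample of either gene reaching 0.5 TPM. Matriptase and prostasin transcripts were therefore too low in these cells for a comparison.

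SPINT1 and SPINT2, the inhibitors of that pair, were both expressed, at very different levels, and lay on opposite sides of their controls after knockdown. SPINT1 (ENSG00000166145, chromosome 15 from 40844018 to 40858207) was 1.97, 1.85 and 1.74 TPM in siCTR and 4.75, 4.32 and 4.31 TPM in siCEP20. All knockdown samples lay above all controls, although the gene stayed among the low ones. The mean went from 1.85 ± 0.115 to 4.46 ± 0.252 TPM (SD, n = 3), a ratio of 2.41, with a log2 fold change of 0.94 (standard error 0.12). With a pseudocount of 0.1 in place of 1, which weighs low genes differently, the log2 fold change was 1.23. SPINT2 (ENSG00000167642, chromosome 19 from 38244035 to 38292615) was 578.1, 583.4 and 528.4 TPM in siCTR and 471.9, 488.4 and 498.3 TPM in siCEP20. All knockdown samples lay below all controls, 30.03 TPM apart at the nearest. SPINT2 went from 563 ± 30.4 to 486 ± 13.4 TPM (SD, n = 3), or 86.3% of the control, with a log2 fold change of -0.21 (standard error 0.05), and was not called. SPINT2 made up nearly all of the Kunitz inhibitor transcripts of this pair, whose sum was 580.0, 585.3 and 530.1 TPM in siCTR and 476.6, 492.7 and 502.6 TPM in siCEP20. The rise of SPINT1 thus did not offset the lower SPINT2 level in the sum.

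The HtrA proteases HTRA1 and HTRA2 were both lower in siCEP20, by different amounts. HTRA1 (ENSG00000166033, chromosome 10 from 122458551 to 122514907) was 56.9, 56.2 and 56.5 TPM in siCTR and 50.1, 49.9 and 51.5 TPM in siCEP20. The spread within each group was small, so that a modest difference, with a log2 fold change of -0.16 (standard error 0.06), still left the groups apart, and HTRA1 was not called. HTRA2 (ENSG00000115317, chromosome 2 from 74529596 to 74533350) was 45.0, 52.1 and 42.8 TPM in siCTR and 32.7, 28.2 and 28.9 TPM in siCEP20. All knockdown samples lay below all controls. Its mean went from 46.6 ± 4.85 to 29.9 ± 2.41 TPM (SD, n = 3), 64.1% of the control, with a log2 fold change of -0.62 (standard error 0.09). HTRA2 was called lower, and the call was lost without siCTR replicate 2, the highest control (-0.54). The ratio of HTRA1 to HTRA2 went from 1.22 ± 0.126 to 1.70 ± 0.14 (SD, n = 3), with all 3 siCEP20 samples above all controls. A related gene, HTRA3, is named after its values were seen and lay on the other side of its controls. HTRA3 was 2.67, 4.06 and 4.11 TPM in siCTR and 4.22, 4.33 and 5.31 TPM in siCEP20. Its log2 fold change was 0.30 (standard error 0.16, limma adjusted p = 0.18), and it was not called.

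Exons of HTRA2 overlap those of AUP1, a gene of lipid droplets on the opposite strand, and the sources used here do not say whether strand was used in quantification. AUP1 was 221.0, 223.8 and 227.9 TPM in siCTR and 299.0, 307.8 and 320.8 TPM in siCEP20, a log2 fold change of 0.46 (limma adjusted p = 0.000282) that was not called. AUP1 thus moved in the direction opposite to HTRA2. Reads placed on the wrong gene of this overlap were not measured here.

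FURIN (ENSG00000140564, chromosome 15 from 90868588 to 90883564) was 59.1, 55.6 and 57.9 TPM in siCTR and 73.1, 79.5 and 73.6 TPM in siCEP20. All knockdown samples lay above all controls. The mean went from 57.6 ± 1.77 to 75.4 ± 3.55 TPM (SD, n = 3), a ratio of 1.31, with a log2 fold change of 0.38 (standard error 0.06) that stayed under the threshold for a call. Under median-of-ratios scaling it was 0.23, still above 0.

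Of the 7 tested genes, 2 were called higher (PRSS23 and SPINT1) and 1 was called lower (HTRA2), beside 11.2% and 4.61% of all tested genes. In 3 of the 9 genes all siCEP20 samples lay above all siCTR samples (PRSS23, SPINT1 and FURIN), beside 38.4% of all tested genes, and in 3 all lay below (HTRA1, HTRA2 and SPINT2), beside 17.0%. PRSS3, PRSS8 and ST14 overlapped. These counts follow from genes chosen with the contrast known, and nothing is read from them. Under median-of-ratios scaling the differences of the 7 tested genes lay lower, PRSS23 at 1.53, HTRA1 at -0.31 and SPINT2 at -0.37.

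**Figure D2:**
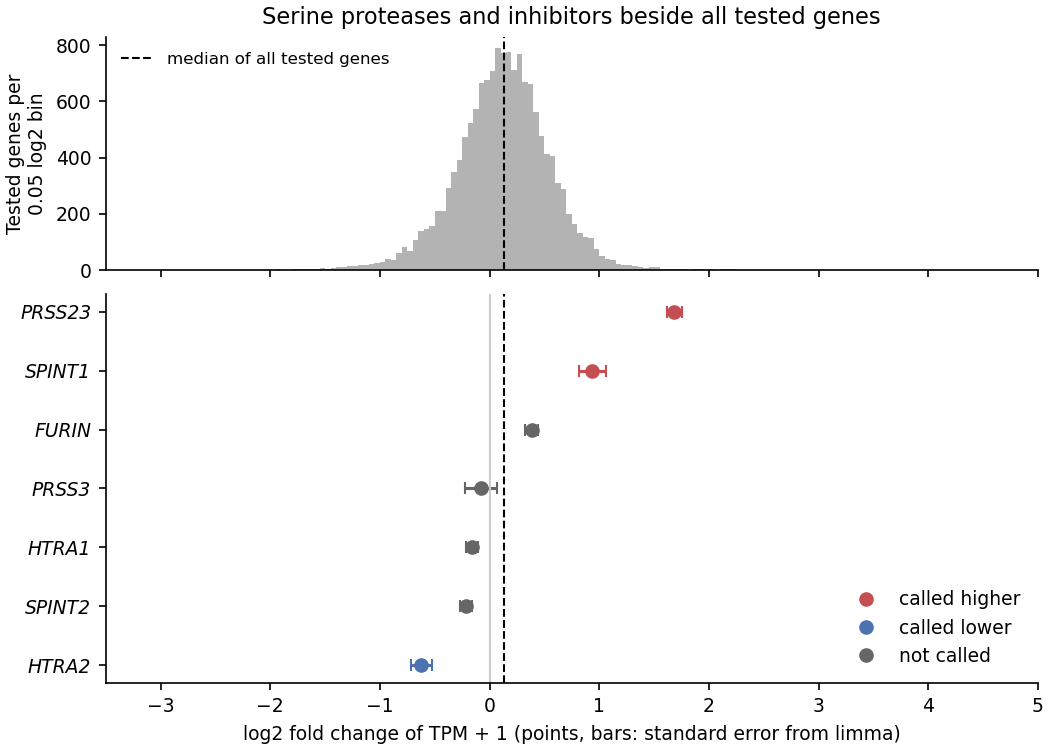
Log2 fold change of TPM + 1 (siCEP20 minus siCTR, horizontal axis) of the 7 tested genes as points with the limma standard error, below a histogram of all 14778 tested genes in bins of 0.05. The dashed line is the median of all tested genes, 0.13. PRSS23 at 1.69 lies in the far right tail, SPINT1 at 0.94 and FURIN at 0.38 lie right of the median, and PRSS3, HTRA1, SPINT2 and HTRA2 lie left of it.

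The order of the levels changed at the top. In siCTR, SPINT2 was the most abundant of the 9 genes, followed by PRSS23, by FURIN and HTRA1, whose samples overlapped, and by HTRA2, PRSS3 and SPINT1. In siCEP20, PRSS23 was above SPINT2 in every sample, followed by FURIN, HTRA1 and HTRA2, and PRSS3 and SPINT1 overlapped. PRSS8 and ST14 overlapped at the bottom in both groups. The ratio of PRSS23 to SPINT2 was 0.310, 0.308 and 0.388 in the siCTR samples and 1.30, 1.31 and 1.14 in the siCEP20 samples. Summed over the 7 proteases, expression was 345.3, 349.5 and 368.7 TPM in siCTR and 773.7, 803.0 and 728.2 TPM in siCEP20. PRSS23 alone made up 51.4% to 55.6% of that sum in siCTR and 78.2% to 79.5% in siCEP20.

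To place the 9 genes among their relatives, 4 lists of other genes were written by hand. They hold secreted and membrane serine proteases, convertases and intracellular serine peptidases, inhibitors, and substrates and receptors. The lists came from general knowledge, but with earlier results of these data known. No list was tested, and the counts and adjusted p-values within the lists are no evidence beyond that choice. Most secreted and membrane proteases were not expressed in these cells. Of 100 such genes 13 were tested and 48 were listed at 0 in every library. None of 15 kallikrein genes, 15 TMPRSS genes or 5 granzyme genes reached a mean of 1 TPM, the highest being TMPRSS9 at 0.348 TPM. Of the 13 tested, 3 were called higher (23.1%, beside 11.2% of all tested genes) and 2 lower (15.4%, beside 4.61%), and the median log2 fold change was 0.28, against 0.13 for all tested genes. PRTN3, PRSS53 and F2 averaged 0.43, 0.76 and 0.81 TPM in siCTR and passed the filter only through siCEP20, where all lay higher. PRSS53 and F2 are named after their values were seen. Nothing is therefore read from this count or median. With a filter of 5 TPM, 1 of 7 tested genes was called higher and 2 lower, beside 1214 and 546 of 10921. The median was then 0.12, against 0.13 for all genes tested.

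The most abundant of them, and the one that fell most, was PLAU, which encodes urokinase, the activator of plasminogen. PLAU (chromosome 10 from 73909177 to 73917496) was 553.4, 540.2 and 594.9 TPM in siCTR and 320.5, 330.1 and 373.7 TPM in siCEP20, all lower than the controls, with a log2 fold change of -0.72 (standard error 0.07, limma adjusted p = 0.000182). Exons of PLAU overlap C10orf55 on the opposite strand. PRSS23 and PLAU changed places: the ratio of PRSS23 to PLAU went from 0.334 ± 0.0104 to 1.79 ± 0.231 (SD, n = 3). F12, coagulation factor XII, fell from 19.7 ± 1.35 to 11.96 ± 1.47 TPM (log2 fold change -0.68, limma adjusted p = 0.00139); its exons overlap GRK6 on the opposite strand. C1R, a protease of the first complement component, rose from 44.5 ± 0.536 to 75.4 ± 2.57 TPM (log2 fold change 0.75, limma adjusted p = 7.42e-05) and has exons that overlap C1RL on its own strand. PRTN3, neutrophil proteinase 3, was listed at 0, 0.48 and 0.8 TPM in siCTR. In siCEP20 it was 2.70, 2.04 and 1.76 TPM, a log2 fold change of 1.18. Its siCTR mean was 0.427 TPM, so it passed the filter of 1 TPM only through siCEP20. Its call is part of the count above, and no p-value is given for it. PROC, protein C, was the remaining gene called higher and is named only because the count was small (log2 fold change 0.61, limma adjusted p = 0.0158).

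Convertases and intracellular peptidases were mostly expressed and mostly not called. Of 39 genes 33 were tested, 2 were called higher (6.06%, beside 11.2% of all tested genes) and 1 lower (3.03%, beside 4.61%), with a median of 0.10. With the median of all tested genes subtracted, the list's median was -0.03, and it was -0.02 under median-of-ratios scaling and -0.08 under quantile normalization. SCPEP1, a serine carboxypeptidase, fell from 66.8, 68.2 and 63.7 TPM to 37.9, 36.8 and 36.1 TPM (log2 fold change -0.83, standard error 0.06, limma adjusted p = 6.55e-05). TPP1, a lysosomal tripeptidyl peptidase, rose from 62.9 ± 10.3 to 104 ± 9.24 TPM (log2 fold change 0.72, limma adjusted p = 0.00177), but was not called under median-of-ratios scaling and overlaps ENSG00000285338 on its own strand. SEC11A, a catalytic subunit of the signal peptidase and the most abundant of the list, was 307 ± 14.6 TPM and 280 ± 6.71 TPM (limma adjusted p = 0.0778).

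Inhibitors of serine proteases were called higher in 6 of 19 tested genes (31.6%, beside 11.2% of all tested genes) and lower in 0 (beside 4.61%), of 55 listed, with a median log2 fold change of 0.23 against 0.13 for all tested genes. At an unadjusted limma p under 0.05, 9 were higher and 3 lower, and none of those 3 passed the fold change threshold. The same counts were 6 higher and 2 lower of 13 secreted and membrane proteases. For convertases and intracellular peptidases they were 12 higher and 7 lower of 33. The share of all tested genes at this p is not given here, so nothing is read from these counts. None of 10 SPINK genes reached 1 TPM. With median-of-ratios scaling the calls were 3 higher and 1 lower, beside 872 and 1121 of all 14749 genes tested under that scaling. With quantile normalization they were 5 higher and 1 lower, beside 923 and 1016 of 14778.

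TFPI2 and TFPI, the Kunitz-type inhibitors among the list genes that the rule names, rose, as did SPINT1, while SPINT2 was lower. AMBP, APP and APLP2, inhibitors of the same list, are named after their values were seen. They were not called, with log2 fold changes of -0.32, 0.15 and 0.04. TFPI2 was 126.9, 131.0 and 170.8 TPM in siCTR and 269.5, 284.9 and 220.9 TPM in siCEP20 (log2 fold change 0.85, limma adjusted p = 0.00137). TFPI went from 68.7 ± 2.68 to 114 ± 7.28 TPM (log2 fold change 0.72, limma adjusted p = 0.00015); it was not called under median-of-ratios scaling, and its exons overlap CALCRL-AS1 on the opposite strand. SERPINB9, the inhibitor of granzyme B, rose from 10.4 ± 1.26 to 19.5 ± 0.589 TPM (log2 fold change 0.85, limma adjusted p = 0.00042), and SERPINI1, neuroserpin, rose from 1.37 ± 0.231 to 3.20 ± 0.570 TPM (log2 fold change 0.82, limma adjusted p = 0.00486). SLPI, a secreted inhibitor of leukocyte elastase that was also called and is named after its value was seen, had a log2 fold change of 0.62 (limma adjusted p = 0.00476).

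Among known substrates and receptors of the 9 proteases and inhibitors, 5 of 20 tested genes (25.0%, beside 11.2% of all tested genes) of 25 listed were called higher and 0 lower (beside 4.61%) in limma, with a median log2 fold change of 0.33 against 0.13 for all tested genes. At an unadjusted limma p under 0.05, 12 were higher and 2 lower, again without the share of all tested genes, so nothing is read from this. With median-of-ratios scaling 2 were called higher and 0 lower, beside 872 and 1121 of all 14749 genes tested under that scaling. With quantile normalization 3 were called higher and 0 lower, beside 923 and 1016 of 14778. EPCAM, an adhesion protein that matriptase cuts and a marker of epithelial cells, rose from 0.834, 1.24 and 1.05 TPM to 3.28, 3.85 and 3.01 TPM (log2 fold change 1.10, standard error 0.16, limma adjusted p = 0.00104). SCNN1A, the alpha subunit of the epithelial sodium channel, which furin and prostasin activate, rose from 4.33 ± 0.617 to 9.75 ± 1.39 TPM (log2 fold change 1.01, limma adjusted p = 0.000736), and its exons overlap LTBR on the opposite strand. The subunit genes SCNN1B and SCNN1G, named after their values were seen, lay below the filter and overlapped between the groups. SCNN1B averaged 0.661 TPM in siCTR and 0.571 TPM in siCEP20, and SCNN1G 0.00726 and 0.0582 TPM. TGFB1, a growth factor precursor cut by furin, rose from 166 ± 7.80 to 273 ± 23.5 TPM (log2 fold change 0.72, limma adjusted p = 0.000209), and its exons overlap HNRNPUL1 on the opposite strand. NOTCH1, a receptor that furin cuts on its way to the surface, rose from 5.12 ± 0.862 to 8.83 ± 0.410 TPM (log2 fold change 0.69, limma adjusted p = 0.0029). TGFB1 was not called under median-of-ratios scaling, and NOTCH1 was called under neither rescaling. F2R, the thrombin receptor, was the remaining gene called (log2 fold change 0.65, limma adjusted p = 0.00036) and is named after its value was seen. CDCP1, cut by matriptase and the most abundant of the list, was 241 ± 13.9 TPM and 217 ± 7.05 TPM (limma adjusted p = 0.0765).

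**Figure D3:**
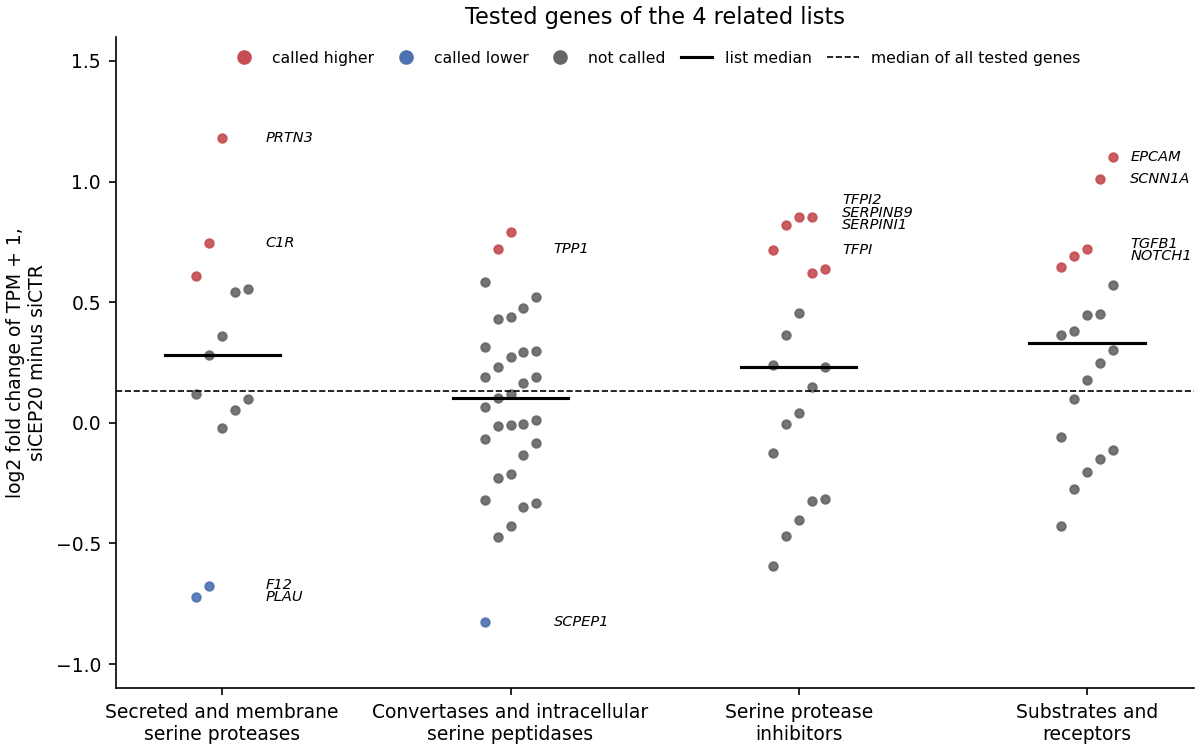
Log2 fold change of TPM + 1 (siCEP20 minus siCTR, vertical axis) of the tested genes of the 4 lists, 1 point a gene, with list medians as solid bars and the median of all tested genes (0.13) as a dashed line. Red points were called higher, blue lower and grey not called. Called inhibitors and substrates lie above the line only, and both protease lists hold calls on either side, with PLAU at -0.72 and SCPEP1 at -0.83.

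The genes with a pattern most like that of PRSS23 were sought among all tested genes, by the root mean square difference of log2(TPM + 1) over the 6 samples, each gene centred on its own mean. The nearest were RSPH1 (0.0687), MTSS2 (0.0936), PODXL2 (0.0992), COL1A1 (0.105) and RNF212 (0.108). They differ widely in level, and the likeness holds on the log2(TPM + 1) scale, which compresses low genes: the ratio of mean TPM was 7.20 for RSPH1, 4.82 for RNF212 and 3.39 to 3.74 for the other 3, beside 3.23 for PRSS23. RSPH1, a radial spoke gene of motile cilia, was 0.508, 0.452 and 0.665 TPM in siCTR and 4.16, 3.71 and 3.83 TPM in siCEP20. RSPH1 passed the expression filter only through its siCEP20 samples, and its exons overlap SLC37A1 on the opposite strand. MTSS2, an actin and membrane binding protein gene, went from 16.2 ± 0.322 to 54.8 ± 1.68 TPM (SD, n = 3) and PODXL2, a sialomucin gene, from 4.79 ± 0.426 to 17.9 ± 0.901 TPM. COL1A1, a collagen chain, went from 5.52 ± 0.333 to 18.9 ± 1.15 TPM, and RNF212, a RING finger gene, from 1.585 ± 0.2996 to 7.64 ± 1.06 TPM. All 5 lay higher in every siCEP20 sample, with log2 fold changes of 1.61 to 1.74 beside 1.69 for PRSS23, which the measure of likeness selects for. None of them is a serine protease, and PRSS23 was by far the most abundant.

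**Figure D4:**
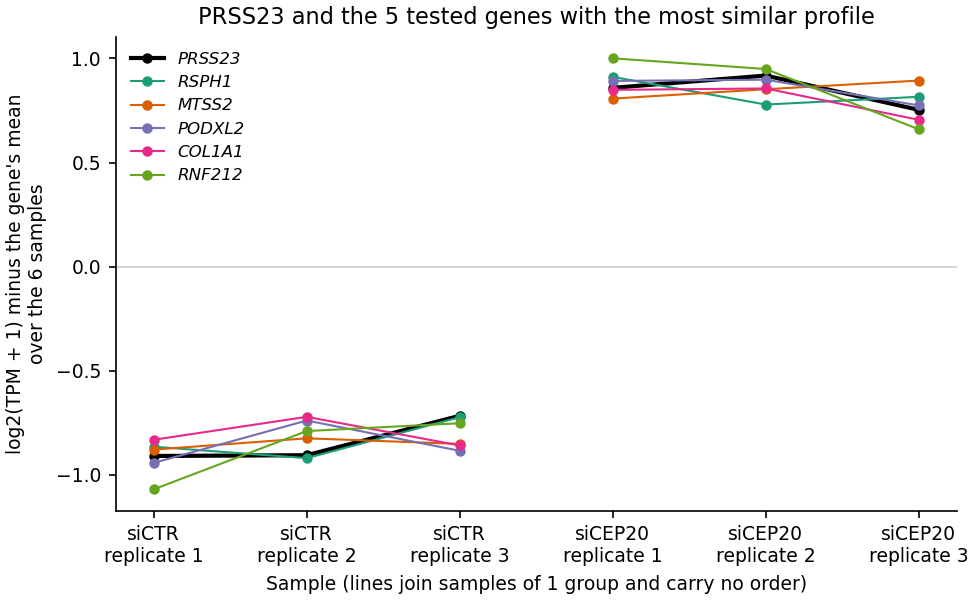
Log2(TPM + 1) of PRSS23 (black) and the 5 most similar genes in the 6 samples, each gene minus its own mean over the samples. All 6 genes lie below 0 in the 3 siCTR samples and above 0 in the 3 siCEP20 samples, with log2 fold changes of 1.61 to 1.74.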

How the data were processed

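RNA-seq of 3 siCEP20 and 3 siCTR samples of A549 cells was used. According to the methods, the authors trimmed reads with fastp 0.20.1, aligned them to hg38 with HISAT2 2.1.0 and quantified genes with StringTie 2.0, and they deposited TPM per Ensembl gene. All 6 columns were mapped to samples by their names. TPM holds no read counts, so precision rests on the replicates and the authors' DESeq2 test, which needs counts, was not repeated; the depth of the libraries is unknown. Here log2(TPM + 1) was tested with limma 3.58.1 (lmFit, eBayes with a trend) in R 4.3.3, without covariates, with a minimum of 1 TPM on a gene's mean. The fit was tested on simulated data. Genes were named and placed with GENCODE release 44.

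The 9 genes and the 4 lists were chosen with earlier results of these data known. Text names the 9 genes, CEP20, in each list the most abundant gene and the 4 called genes with separate groups and the largest change, and the 5 genes most like PRSS23; others are marked, and 2 genes under this rule are not reported here. Alternatives were quantile normalization, median-of-ratios scaling, a pseudocount of 0.1, a filter of 5 TPM or none, a block for the replicate number, eBayes with no trend, and each library left out. Tables and plots were made with pandas 2.3.3, matplotlib 3.10.9, numpy 2.4.6 and scipy 1.17.1 in Python 3.11.15.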

Additional observations from a re-analysis of the deposited data

How the results depend on the processing

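Scaling changed the balance of calls. Genes called higher numbered 872 with median-of-ratios scaling and 923 with quantile normalization against 1659 without, and genes called lower 1121 and 1016 against 682, so the share of calls that were higher went from 70.9% to 43.8% and 47.6%. With median-of-ratios scaling, which tested 14749 genes, PRSS23 had a log2 fold change of 1.53. Of 33 convertases or intracellular peptidases 1 was then called higher and 2 lower. Of 19 inhibitors 3 were called higher and 1 lower, and of 20 substrates or receptors 2 were called higher. With quantile normalization, which tested 14778 genes, 1 of 19 inhibitors was called lower and 3 of 20 substrates or receptors higher. With a pseudocount of 0.1, 4 of 33 convertases or intracellular peptidases were called higher, beside 1897 of 14778 genes. With a filter of 5 TPM, 1 of 7 secreted or membrane proteases was called higher, beside 1214 of 10921 genes. Rescaling moved the median over all genes tested, on the log2 scale, from 0.132 to -0.0059 and 0.00757, and the higher filter tests fewer genes; the cause of the other shifts was not tested. Leaving out 1 library at a time gave 1381 to 1905 genes called higher and 613 to 706 lower. Over the alternatives the log2 fold change of PRSS23 was 1.53 to 1.75. Among the genes of the 4 lists that the rule names, no called gene changed direction in an alternative that gave a value.

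The replicate number as a block (replicate block) gave 1654 genes called higher and 694 lower and changed no count of the lists. Deviations of same-numbered samples correlated at 0.157, -0.0614 and -0.0623 across genes, so no shared origin is shown for same-numbered samples and the block is no more than a variant. Only siCTR 1 correlated best with its own number; siCTR 2 correlated at 0.17 with siCEP20 3 and siCTR 3 at 0.104 with siCEP20 2, and the remaining pairs lay between -0.121 and -0.0361. No label ties these samples, and no other pairing was fitted.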
